A study of Homo sapiens with 6 samples.

Results

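Genes of transforming growth factor beta (TGF-beta) and bone morphogenetic protein (BMP) signalling were followed in oral squamous carcinoma cells after knockdown of Sam68. They were taken by symbol, as 10 of the 21462 genes in the deposited table, and comprise the ligands TGFB1 and TGFB2, the transducers and inhibitors SMAD3, SMAD6 and SMAD7, the DNA-binding inhibitors ID1 to ID4, and TGFBI, a secreted matrix protein named for its induction by TGF-beta. The human line used was HO-1-N-1, and every value therefore describes that line alone. Poly(A) RNA was sequenced from 3 libraries of cells transfected with a control siRNA (replicates 1, 3 and 5) and 3 of cells transfected with an siRNA against Sam68 (replicates 1, 2 and 3), all with the lipid reagent HilyMax. Sam68 is an RNA-binding protein encoded by KHDRBS1, and the comparison asks which transcripts differ when it is depleted. Nothing in the labels states whether each library had its own culture, and the p-values cover the spread among these libraries alone, which may be technical. In RNA from whole cultures, fewer cells expressing a gene and less RNA per cell cannot be told apart.

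TGF-beta ligands are secreted in a latent complex and, once released, bind a type II receptor that phosphorylates a type I receptor. The type I receptor phosphorylates SMAD2 and SMAD3, which join SMAD4 and act on genes in the nucleus, while BMP receptors use SMAD1, SMAD5 and SMAD9. SMAD6 and SMAD7 are inhibitory members of the same family and are themselves induced by these pathways. ID proteins are helix-loop-helix proteins without a DNA-binding region; they hold E proteins such as TCF3 and TCF12 away from E-box sequences, and ID1 to ID3 are well known BMP targets. In keratinocytes TGF-beta restrains division.

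The promoter windows of ID4, the gene with the largest fall among the 10, of ID1, its relative with little difference, of TGFB1 and TGFB2, which rose together, and of SMAD6 are shown for the sequence context of those results. All 10 genes had a RefSeq window (GRCh38.p14, 250 bases before to 50 after a transcript start), 16 windows in all, and each sequence reads 5′ to 3′ on the gene's strand. Capitals mark the E-box CANNTG, the SMAD palindrome GTCTAGAC and the TATA box TATAAA, searched on both strands.
ID4, chr6:19837120-19837419, plus strand: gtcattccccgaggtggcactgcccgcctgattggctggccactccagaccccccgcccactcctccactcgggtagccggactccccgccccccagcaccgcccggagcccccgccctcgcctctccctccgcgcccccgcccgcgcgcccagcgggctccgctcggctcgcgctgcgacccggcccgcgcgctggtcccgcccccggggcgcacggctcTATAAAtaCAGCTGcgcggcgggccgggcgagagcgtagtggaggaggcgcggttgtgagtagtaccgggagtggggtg
ID1, chr20:31605039-31605338, plus strand: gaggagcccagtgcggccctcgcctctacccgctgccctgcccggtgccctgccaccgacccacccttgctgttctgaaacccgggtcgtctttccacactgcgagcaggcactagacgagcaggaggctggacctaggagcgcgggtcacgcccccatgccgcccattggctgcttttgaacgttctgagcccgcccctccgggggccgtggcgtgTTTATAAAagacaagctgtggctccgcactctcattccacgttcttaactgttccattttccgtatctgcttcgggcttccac
TGFB1, chr19:41353873-41354172, minus strand: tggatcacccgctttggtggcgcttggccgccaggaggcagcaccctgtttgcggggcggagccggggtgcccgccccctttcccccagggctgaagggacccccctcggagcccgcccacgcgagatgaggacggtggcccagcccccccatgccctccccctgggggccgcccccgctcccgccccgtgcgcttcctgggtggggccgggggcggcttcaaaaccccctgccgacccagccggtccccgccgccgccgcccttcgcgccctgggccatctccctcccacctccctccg
TGFB2, chr1:218345086-218345385, plus strand: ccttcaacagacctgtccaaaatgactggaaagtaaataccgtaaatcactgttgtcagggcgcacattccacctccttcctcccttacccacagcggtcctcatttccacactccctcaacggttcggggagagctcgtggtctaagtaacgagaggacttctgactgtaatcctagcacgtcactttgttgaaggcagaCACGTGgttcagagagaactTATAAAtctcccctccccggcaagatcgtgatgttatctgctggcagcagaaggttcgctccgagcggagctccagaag
SMAD6, chr15:66701986-66702285, plus strand: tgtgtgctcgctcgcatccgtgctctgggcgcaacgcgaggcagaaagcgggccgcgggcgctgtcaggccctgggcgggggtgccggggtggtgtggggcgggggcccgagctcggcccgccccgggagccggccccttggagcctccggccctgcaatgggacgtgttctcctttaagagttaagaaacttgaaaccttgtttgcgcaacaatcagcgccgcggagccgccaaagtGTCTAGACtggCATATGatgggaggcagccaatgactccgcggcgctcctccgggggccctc
Of 35116 RefSeq promoter windows of the same length, 68.7% held an E-box, 11.5% a TATA box and 0.202% the palindrome. The ID4 window held a TATA box at -29 from the start and an E-box at -21, and the TGFB2 window a TATA box at -29 and an E-box at -49. The 2 TATA matches of the ID1 window, on opposite strands, overlap each other. The window of SMAD6 was the only one of the 16 with the palindrome, at -12, with an E-box at -1, and the TGFB1 window held none of these letters. GGCGCC, a sequence found in BMP-responsive elements, lay in 19.2% of all windows and in those of SMAD3 and TGFBI but in none of the 5 shown.

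The libraries held between 16099488 and 17336651 counts. KHDRBS1 fell from 206 ± 21.3 to 28.7 ± 2.29 CPM (counts scaled to library size; SD, n = 3 each), with a log2 fold change of -2.84 (SE 0.09; adjusted p = 1.56e-08, quasi-likelihood test of edgeR), and no Sam68 siRNA library reached the level of any control. Control replicate 5 stood apart from the other controls: transcripts of the mitochondrial genome took 2.27% of its counts, against 0.158% to 0.671% in the other 5 libraries, and its chi-square per degree of freedom against controls 1 and 3 was 39.8 and 33.5, where that between controls 1 and 3 was 6.39. All 12 squamous epithelial markers were detected well enough to be tested, with a summed level per library of 13370 to 13750 TPM (counts scaled for transcript length and depth) in the controls and 14000 to 14550 TPM with the Sam68 siRNA. TP63 and KRT5 rose, DSG3 fell and the other 9 were not called, where 19.1% of all tested genes changed. The call of KRT5 was lost in 3 of 17 alternative settings and that of TP63 in 2. In the authors' deposited table the FDR of KRT5 was 0.515. Of 10 fibroblast, 10 endothelial and 10 leukocyte markers 4, 2 and 3 were tested, and PDGFRA, POSTN, KDR, MS4A1 and NKG7 had no count in any library. The leukocyte markers, of which CD68 made up most, summed to 48.5 to 62.2 TPM in the controls and 64.2 to 69.3 TPM with the Sam68 siRNA. The 3 tested did not overlap between the groups, which also held for 38.0% of all tested genes. Their median log2 fold change was 0.39, and none was called. The part of these marker differences in the results was not tested.

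On the TPM scale, which corrects for transcript length, the 10 genes ranged from abundant to barely detected. TGFBI stood at the top, between 666 and 715 TPM over the 6 libraries, with ID1 between 145 and 193 TPM and ID3 between 128 and 148 TPM next. In the controls ID1 and ID3 did not overlap, whereas among the Sam68 siRNA libraries they did. TGFB1 followed at 73.3 to 93.7 TPM, SMAD3 at 31.0 to 39.9 TPM and TGFB2 at 17.7 to 27.5 TPM. In each group the level of TGFB1 exceeded that of SMAD3, and SMAD3 that of TGFB2, without overlap. ID4 overlapped TGFB2 in the controls but lay wholly below it with the Sam68 siRNA, where its range instead overlapped that of SMAD7, at 6.0 to 7.26 TPM over all libraries. ID2 and SMAD6 were close to the limit of detection, at 0.911 to 1.45 TPM and 0.645 to 1.28 TPM, which rested on 11 to 17 and 16 to 32 counts per library.

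**Figure D1:**
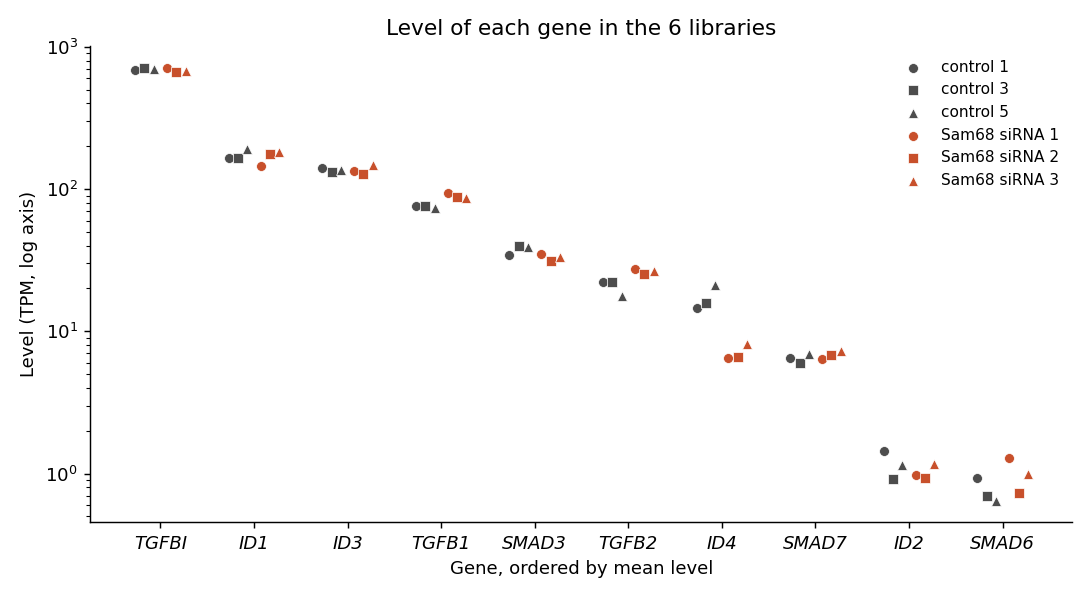
Level of the 10 genes in TPM (log axis) in each library, with controls in grey, Sam68 siRNA libraries in red, and the marker shape giving the library. ID4, TGFB1 and TGFB2 separate the groups, ID4 with 14.6 to 21.1 TPM in the controls and 6.48 to 8.12 TPM with the Sam68 siRNA. ID1, ID3, SMAD7 and TGFBI overlap.

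All 10 genes passed the filter on low counts, and 3 of them changed at an adjusted p below 0.05, 2 rising and 1 falling. Over all 12351 genes tested 19.1% changed, 9.33% rising and 9.76% falling, and 3 of 10 is read against that share. The same 3 were the ones whose groups did not overlap, which held for 38.0% of all tested genes. The median log2 fold change of the 10 was -0.02 and that of all tested genes -0.00476.

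ID4 (ENSG00000172201, chromosome 6, 19837370 to 19842197, plus strand, hg38), which opposes E proteins as its relatives do and is also known in development of the nervous system, was lower in every Sam68 siRNA library. It measured 19.0, 20.4 and 29.4 CPM in controls 1, 3 and 5, compared with 8.45, 8.92 and 10.7 CPM in Sam68 siRNA libraries 1, 2 and 3. The lowest control was above the highest Sam68 siRNA library, and control replicate 5 was above the other controls. The mean fell from 22.9 ± 5.59 to 9.34 ± 1.17 CPM (SD, n = 3 each), which is 2.46-fold lower. On the log2 scale the change was -1.30 (SE 0.17, 95% interval -1.68 to -0.91) with an adjusted p of 0.001 by edgeR, outside the 5th to 95th percentile of all tested genes (-0.51 to 0.43). Without control replicate 5 the log2 fold change was -1.08 (adjusted p = 6.17e-06 by edgeR), so the fall was smaller but still passed without the library that stood apart. Permuting the 6 levels exactly (two-sided) gave p = 0.1, the smallest that 3 against 3 allows. In the authors' deposited table the log2 fold change of ID4 was -1.29 with an FDR of 7.32e-13.

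The other ID genes did not pass the test, and their intervals were narrow for ID1 and ID3. ID1 (ENSG00000125968, chromosome 20, 31605283 to 31606515, plus strand) stood at 69.1, 68.3 and 85.2 CPM in controls 1, 3 and 5 and at 60.1, 75.3 and 76.6 CPM in Sam68 siRNA libraries 1, 2 and 3. These values interleave, with the highest in control replicate 5 and the lowest in Sam68 siRNA replicate 1, and without either of those libraries the sign turned (0.04 and 0.04). The log2 fold change of ID1 was -0.07 (95% interval -0.32 to 0.18, adjusted p = 0.709 by edgeR). That of ID3 (ENSG00000117318, chromosome 1, 23557926 to 23559501, minus strand) was -0.00145 (95% interval -0.17 to 0.17), with 41.7 to 46.6 CPM in the controls and 42.3 to 47.6 CPM with the Sam68 siRNA. ID2 (ENSG00000115738, chromosome 2, 8678845 to 8684461, plus strand) had a log2 fold change of -0.20 with a 95% interval from -0.93 to 0.54, and a difference within it was not detectable at this depth.

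Since ID1 and ID3 are far more abundant per length, ID4 made up a small part of the family's transcripts. Of the summed TPM of the 4 ID genes, ID4 took 4.53%, 5.04% and 6.01% in controls 1, 3 and 5 and 2.26%, 2.13% and 2.39% in Sam68 siRNA libraries 1, 2 and 3. The groups did not overlap (5.19% ± 0.754 against 2.26% ± 0.129, SD, n = 3 each; exact two-sided permutation p = 0.1). That separation restates the fall of ID4 and is no separate evidence. The summed level itself overlapped, at 315 to 352 TPM in the controls and 287 to 340 TPM with the Sam68 siRNA (exact permutation p = 0.4). The share of ID1 was 53.1% ± 1.61 in the controls and 53.6% ± 3.02 with the Sam68 siRNA (n = 3 each; exact permutation p = 0.9).

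**Figure D2:**
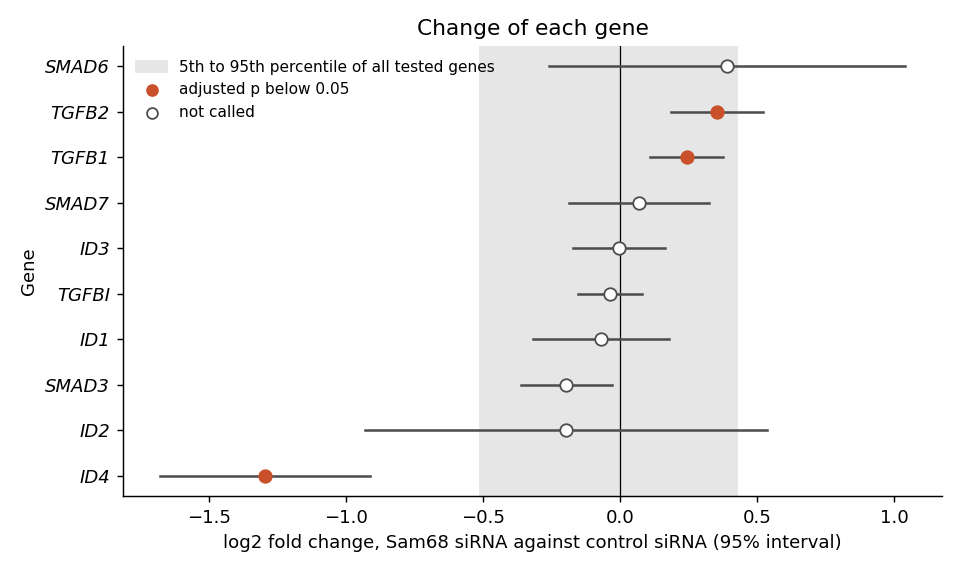
Log2 fold change of the 10 genes, Sam68 siRNA against control siRNA, with 95% intervals from edgeR's quasi-likelihood fit; filled points passed at an adjusted p below 0.05, and the grey band spans the 5th to 95th percentile of all tested genes. ID4 (-1.30) lies outside the band, TGFB1 (0.24) and TGFB2 (0.35) are called inside it, and SMAD6 and ID2 have the widest intervals.

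Both TGF-beta ligands with measurable levels rose modestly. TGFB2 (ENSG00000092969, chromosome 1, 218345336 to 218444619, plus strand), the isoform that needs the co-receptor TGFBR3 for efficient binding, stood at 44.3, 43.9 and 37.9 CPM in controls 1, 3 and 5 and at 55.0, 52.3 and 53.8 CPM in Sam68 siRNA libraries 1, 2 and 3. Every Sam68 siRNA library was above every control, and control replicate 5 was the lowest of all. The mean rose from 42.0 ± 3.60 to 53.7 ± 1.37 CPM (n = 3 each), or 1.28-fold, with a log2 fold change of 0.35 (SE 0.08, adjusted p = 0.00918 by edgeR). Without control replicate 5 it was 0.285 (adjusted p = 0.0114 by edgeR). The call was lost with the replicate number as a block (adjusted p = 0.0711 by edgeR) and in limma on log2(TPM + 1) without a filter (0.0872). The authors' deposited table gave TGFB2 a log2 fold change of 0.36 with an FDR of 0.000141.

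TGFB1 (ENSG00000105329, chromosome 19, 41301587 to 41353922, minus strand), the most widely expressed isoform, stood at 77.6, 77.1 and 79.8 CPM in controls 1, 3 and 5 and at 95.7, 92.9 and 88.9 CPM in Sam68 siRNA libraries 1, 2 and 3. The controls were close together and all lay below the Sam68 siRNA libraries. The mean rose 1.18-fold, from 78.2 ± 1.44 to 92.5 ± 3.46 CPM (n = 3 each; 0.24 on the log2 scale with an SE of 0.06 and adjusted p = 0.0181 by edgeR). The call was lost without control replicate 3 (adjusted p = 0.0573 by edgeR) and without Sam68 siRNA replicates 1 and 2 (adjusted p = 0.0708 and 0.0784 by edgeR), and in the authors' deposited table the FDR of TGFB1 was 0.0957. The level of TGFB1 is uncertain, because its span in the table overlaps that of HNRNPUL1 on the other strand by 6201 bases and the library kit named in the labels, NEBNext Ultra II RNA, does not mark strand. CCDC97 and TMEM91 on the other strand overlap TGFB1 too, by 14702 and 3012 bases. They held 31.6% and 1.55% of its counts, and their part was not tested. HNRNPUL1 held 284% of the counts of TGFB1 and itself rose from 201 ± 7.27 to 283 ± 13.5 CPM (log2 fold change 0.49, adjusted p = 0.000297 by edgeR); its part in the TGFB1 result was not tested. TGFB3, the remaining isoform, had 20 counts over all 6 libraries and was not tested.

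Set side by side per length, TGFB1 was 3.67 ± 0.400 times as abundant as TGFB2 in the controls and 3.38 ± 0.126 times with the Sam68 siRNA (TPM ratio, n = 3 each; exact two-sided permutation p = 0.4). The ratio was highest in control replicate 5, at 4.13, and between 3.24 and 3.48 in the other 5 libraries, so the balance of the isoforms overlapped between the groups. Their summed level did not: it was 97.9, 98.5 and 91.1 TPM in controls 1, 3 and 5 and 121, 113 and 113 TPM in Sam68 siRNA libraries 1, 2 and 3 (exact permutation p = 0.1). The sum restates the rises of the 2 genes and is no separate evidence. The level of TGFB1, uncertain as stated above, enters both the ratio and the sum.

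A heptamer singled out in earlier work on these data, GCAGTAC, lay in the 3' UTR of TGFB2 and, for TGFB1, in the coding sequence alone (GENCODE 29). SMAD7 held it in the 3' UTR too, and SMAD3 held another such heptamer, ACTGATT, there. The other 6 genes held neither in the 3' UTR or the coding sequence, and 5' UTRs were not searched. The 3' UTR sites are shown, in capitals within their neighbouring bases on hg38, because both heptamers were singled out for the direction in which genes holding them moved.
TGFB2, chr1:218443840-218443868, plus strand: tgtgttaatcaGCAGTACaatttgatcgt
SMAD7, chr18:48920851-48920879, minus strand: gtggggcagagGCAGTACctgggcaagct
SMAD3, chr15:67191136-67191164, plus strand: tctcagaacatACTGATTgggaggtgcgt
GCAGTAC in the 3' UTR marked 560 tested genes, 30.2% of them rising and 5.0% falling; among those lacking it the shares were 8.41% and 10.2%. ACTGATT marked 1646, with 6.93% rising and 15.1% falling; among those lacking it the shares were 9.83% and 9.1%. SMAD7 and SMAD3, which each have a site, did not pass the test. The shares cover 3' UTR sites only, and none was taken for sites in coding sequences such as that of TGFB1. Since the heptamers were chosen on these libraries, the values are a description. The part of GCAGTAC in the changes of TGFB2 and TGFB1 was not tested.

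The SMAD genes among the 10 did not pass the test. SMAD3 (ENSG00000166949, chromosome 15, 67063763 to 67195169, plus strand), the transducer of TGF-beta signals that binds DNA directly, stood at 95.8, 111 and 116 CPM in controls 1, 3 and 5 and at 97.8, 89.9 and 94.1 CPM in Sam68 siRNA libraries 1, 2 and 3. Control replicate 1 and Sam68 siRNA replicate 1 overlapped, and the other Sam68 siRNA libraries lay below every control. Its log2 fold change was -0.195 (SE 0.08, 95% interval -0.36 to -0.03, adjusted p = 0.0951 by edgeR), and without control replicate 1 it passed (-0.27, adjusted p = 0.0164 by edgeR). The inhibitor SMAD7 (ENSG00000101665, chromosome 18, 48919853 to 48952052, minus strand) stood at 9.19 to 11.3 CPM in the controls and 9.86 to 11.3 CPM with the Sam68 siRNA, with a log2 fold change of 0.07 (95% interval -0.19 to 0.33). SMAD6 (ENSG00000137834, chromosome 15, 66702236 to 66782849, plus strand), which preferentially blocks BMP signals, had a log2 fold change of 0.39 with an interval from -0.26 to 1.04, within which no difference was detectable at 16 to 32 counts per library.

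TGFBI (ENSG00000120708, chromosome 5, 136028988 to 136063818, plus strand), which joins collagens and integrins in the matrix, was the most abundant of the 10 and differed least beside ID3. It held 815, 832 and 871 CPM in controls 1, 3 and 5 and 838, 809 and 808 CPM in Sam68 siRNA libraries 1, 2 and 3, which overlap. With 13228 to 14290 counts per library its log2 fold change of -0.04 had a 95% interval of only -0.15 to 0.08 (adjusted p = 0.686 by edgeR). A change as large as that of TGFB1 lies outside this interval.

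The genes most like the called ones over the 6 libraries, by Pearson's r of log2 CPM against the 9401 genes averaging 10 CPM or more, are given as a description of pattern. For ID4 these were RPS27L (r = 0.999), NKIRAS2 (r = 0.999) and ERRFI1, a feedback inhibitor of the EGF receptor (r = 0.993), with log2 fold changes of -0.26, -0.27 and -0.43. The match is in shape, since none of the 3 moved as far as ID4. For TGFB2 they were the Fanconi anaemia gene FANCG (r = 0.997), the lamin LMNB2 (r = 0.996) and the histone methyltransferase NSD2 (r = 0.994), with log2 fold changes of 0.46, 0.60 and 0.54. For TGFB1 they were the transcription factor SRF (r = 0.998), TSR1 (r = 0.995, not called) and MOGS (r = 0.995), with log2 fold changes of 0.27, 0.14 and 0.49. All points share the same 6 libraries, including the difference between the groups.

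The wider pathway was read from 9 lists by role, holding 191 genes: the 10 genes followed here and 181 others. Of these 129 were tested, and 17 rose, 20 fell and 92 were not called (28.7% changed, against 19.1% of all tested genes). The counts include the 10 genes with their 2 rises and 1 fall, and are not separate from them. The median log2 fold change of the 129 was -0.07. GCAGTAC lay in the 3' UTR of 5 of the 17 that rose (PPM1A, RUNX2, SMAD2, TGFB2 and USP15), of 0 of the 20 that fell and of 5 of the 92 not called. ACTGATT lay in that of 4 that rose, 3 that fell and 23 not called. Over all tested genes holding GCAGTAC there, 30.2% rose and 5.0% fell, and of those holding ACTGATT 6.93% rose and 15.1% fell. Both heptamers were chosen on these libraries for such directions, so the counts are a description and no separate evidence. Without Sam68 siRNA replicates 2 and 3 the number of called genes was 22 and 24.

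**Figure D3:**
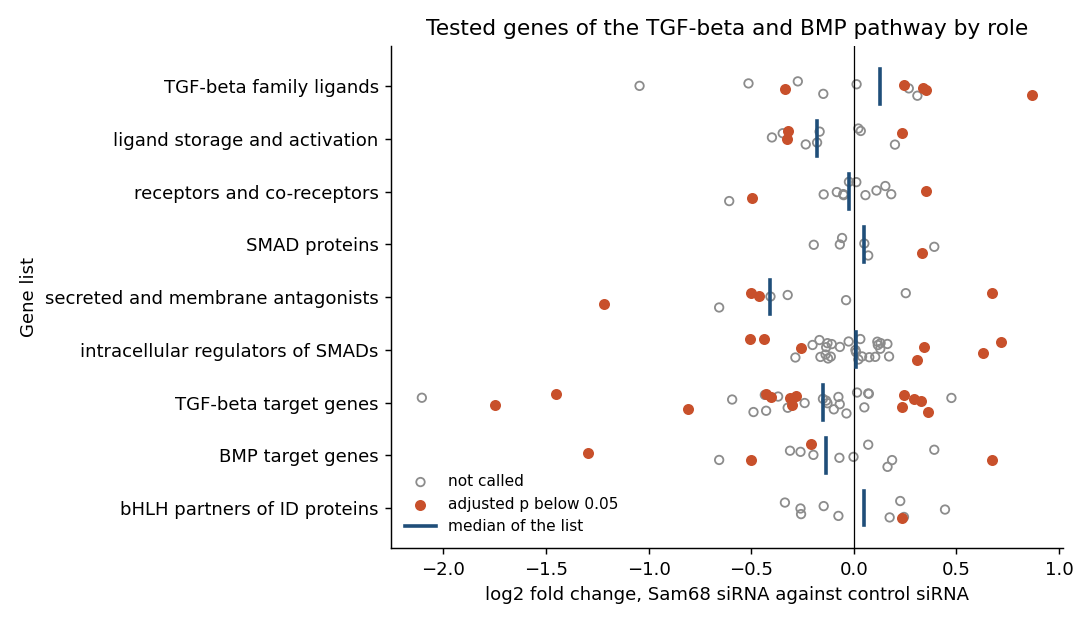
Log2 fold change of each tested gene in the 9 pathway lists, Sam68 siRNA against control siRNA, with filled points for an adjusted p below 0.05, open points for genes not called and a bar at the median of each list. Called genes lie on both sides of 0 in every list but the SMAD proteins and the bHLH partners of ID proteins, each with 1 called gene.

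Among 31 genes listed as ligands of the family, 12 were tested, of which 4 rose, 1 fell and 7 were not called. These counts include BMP1, the only gene of the list to fall, which is not itself a ligand. The share changed was 41.7%, against 19.1% of all tested genes (median log2 fold change 0.13). Beside TGFB1 and TGFB2 the rises were those of GDF11, a ligand that signals through activin receptors, and GDF15, a stress-induced circulating ligand. GDF11 stood at 8.81, 8.59 and 6.61 CPM in controls 1, 3 and 5 and at 16.1, 14.9 and 13.0 CPM in Sam68 siRNA libraries 1, 2 and 3, with no overlap. Its log2 fold change was 0.87 (SE 0.13, adjusted p = 0.00121 by edgeR), but its level is uncertain, since SARNP on the other strand overlaps it and holds 252% of its counts. GDF15 rose from 102 ± 4.36 to 129 ± 10.9 CPM. The fall was that of BMP1, from 182 ± 16.3 to 144 ± 4.07 CPM, which despite its name encodes a metalloproteinase that processes procollagen. With the replicate number as a block the calls of GDF15 and BMP1 were lost (adjusted p = 0.0991 and 0.103 by edgeR), and that of GDF15 also in limma on log2(TPM + 1) without a filter (0.0587). INHBB, encoding an activin subunit, had a log2 fold change of 0.01. INHBA, encoding the related subunit, stood at 73.7, 71.4 and 122 CPM in controls 1, 3 and 5 and at 62.0 to 62.6 CPM with the Sam68 siRNA, and was not called (adjusted p = 0.172 by edgeR). Control replicate 5 was far above the other controls in INHBA, and the groups did not overlap.

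The TGF-beta receptors moved in opposite directions. TGFBR2, the type II receptor that binds the ligand first, stood at 102, 114 and 105 CPM in controls 1, 3 and 5 and at 78.8, 74.5 and 74.7 CPM in Sam68 siRNA libraries 1, 2 and 3. It fell 1.41-fold (-0.50 on the log2 scale, SE 0.07, adjusted p = 0.000525 by edgeR). TGFBR1, the type I receptor that phosphorylates SMAD2 and SMAD3, stood at 97.5, 98.6 and 89.4 CPM in controls 1, 3 and 5 and at 121, 120 and 123 CPM in Sam68 siRNA libraries 1, 2 and 3. It rose 1.27-fold (0.35 on the log2 scale, SE 0.06, adjusted p = 0.00234 by edgeR). Neither pair of groups overlapped, and both calls held without each library in turn, with adjusted p up to 0.00572 for TGFBR2 and 0.0191 for TGFBR1. The TPM ratio of TGFBR1 to TGFBR2 was 0.600 ± 0.0370 in the controls and 1.08 ± 0.0364 with the Sam68 siRNA (n = 3 each), with exact two-sided permutation p = 0.1, the smallest possible here. Since the 2 genes separated the groups in opposite directions, the ratio restates their changes and is no separate evidence. Of the 13 receptors and co-receptors tested of 19, these were the only calls (15.4%, against 19.1% of all tested genes, median -0.02). ACVR1, a type I receptor for BMPs, was listed at 0 counts in every library; whether that 0 is its level in these cells was not tested.

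Among the 8 SMAD genes 7 were tested and SMAD2 alone was called (14.3%, against 19.1% of all tested genes). SMAD2, the other TGF-beta transducer, stood at 75.8, 88.7 and 76.3 CPM in controls 1, 3 and 5 and at 98.1, 101 and 104 CPM in Sam68 siRNA libraries 1, 2 and 3 (0.33 on the log2 scale, SE 0.07, adjusted p = 0.00956 by edgeR). Its call was lost without Sam68 siRNA replicate 3 (adjusted p = 0.0546 by edgeR), with the replicate number as a block (0.0681), and in limma on log2(TPM + 1) with and without a filter (0.0786 and 0.136) and log2(TPM + 0.1) (0.0786). The TPM ratio of SMAD2 to SMAD3 was 0.153 to 0.187 in the controls and 0.233 to 0.262 with the Sam68 siRNA, without overlap (exact permutation p = 0.1). SMAD4, the shared partner, and the BMP transducers SMAD1 and SMAD5 had log2 fold changes of 0.05, -0.07 and -0.06 and were not called.

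**Figure D4:**
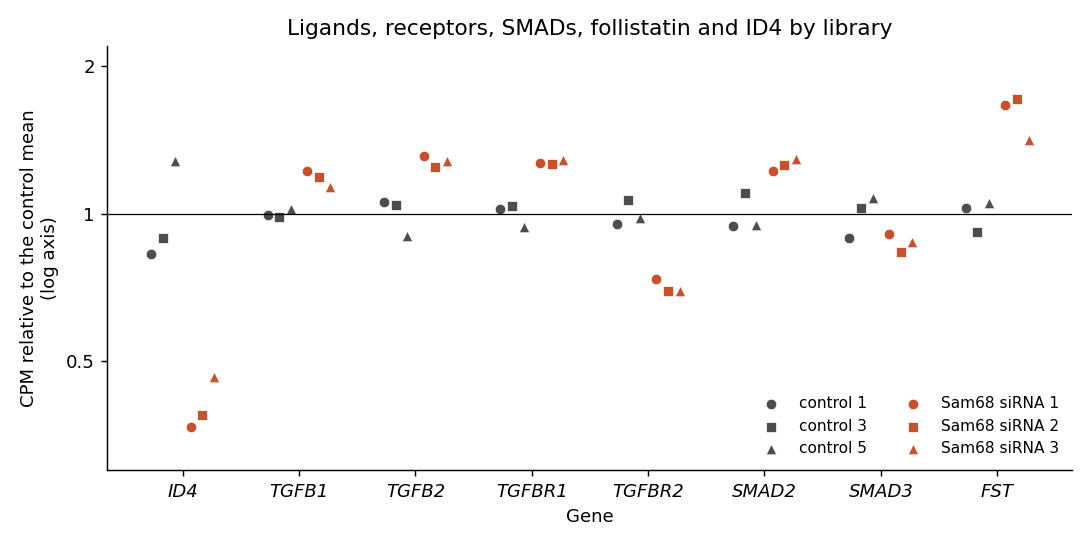
Level of 8 genes in each library as CPM relative to the control mean (log axis), with controls in grey and Sam68 siRNA libraries in red. The groups separate in ID4, TGFB1, TGFB2, TGFBR1, TGFBR2, SMAD2 and FST and overlap in SMAD3, and control replicate 5 is the highest control in ID4 and the lowest in TGFB2 and TGFBR1.

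Genes that store and release the ligands gave 1 rise and 2 falls among 11 tested of 17 (median -0.18). Those calls made up 27.3%, against 19.1% of all tested genes. FURIN, the protease that cleaves the TGF-beta precursor, fell from 236 ± 16 to 189 ± 13.2 CPM (mean ± SD of 3 libraries each; log2 difference -0.32, adjusted p = 0.00856 by edgeR), and ITGAV, the integrin subunit that helps release latent TGF-beta, from 468 ± 58.6 to 373 ± 26.1 CPM, with overlapping groups. LTBP2, a matrix relative of the latent TGF-beta binding proteins, rose from 142 ± 14.7 to 167 ± 6.46 CPM. Each of the 3 calls was lost without at least 1 library: that of FURIN without Sam68 siRNA replicate 3 (adjusted p = 0.0504 by edgeR), that of ITGAV without controls 1 and 3 and Sam68 siRNA replicates 1 and 2 (up to 0.109), and that of LTBP2 without any library but control replicate 3 (up to 0.136).

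Of 17 secreted and membrane antagonists 9 were tested, with 1 rise, 3 falls and 5 not called (median -0.41). Called genes thus took 44.4% of this short list, against 19.1% of all tested genes. Follistatin (FST), which binds activins and several BMPs, stood at 105, 93.7 and 107 CPM in controls 1, 3 and 5 and at 170, 175 and 144 CPM in Sam68 siRNA libraries 1, 2 and 3. It rose 1.60-fold without overlap (0.68 on the log2 scale, SE 0.08, adjusted p = 0.000307 by edgeR). CRIM1, a transmembrane protein that binds BMPs, fell from 147 ± 8.60 to 107 ± 5.15 CPM, and is uncertain because FEZ2 on the other strand holds 39.5% of its counts. BAMBI, a decoy receptor, fell from 8.14 ± 1.20 to 5.75 ± 0.526 CPM, and INHA, encoding the inhibin alpha subunit, from 1.24 ± 0.448 to 0.533 ± 0.111 CPM. OBSL1, on the other strand from INHA, holds 5330% of its counts. Only 1 of the antagonists fell without control replicate 3 and without each Sam68 siRNA library in turn, and 2 without control replicate 1.

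Of 36 intracellular regulators of SMADs 32 were tested, with 4 rises, 3 falls and 25 not called (median 0.01). Against 19.1% of all tested genes, 21.9% of these regulators changed. The deubiquitinase USP15, which acts on TGF-beta receptors and SMADs, rose from 39.4 ± 0.559 to 64.7 ± 0.974 CPM (mean ± SD of 3 libraries each; log2 difference 0.72, SE 0.06, adjusted p = 5.33e-05 by edgeR). ZFYVE9, the anchor that presents SMAD2 and SMAD3 to the receptor, rose by 0.63 in log2 and overlaps CC2D1B, which holds 244% of its counts, on the other strand. PPM1A, a phosphatase of SMADs, and TRIM62 rose by 0.34 and 0.31. XIAP, PPP1R15A and the ubiquitin ligase WWP1 (overlapping RMDN1) changed by -0.44, -0.50 and -0.26; TRIM62 and WWP1 were named after their values were seen. The number of calls, 7, was 4 without control replicate 3, and 3 without Sam68 siRNA replicate 2 or 3.

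Genes known as TGF-beta targets moved both ways: of 33 tested of 35, 5 rose, 8 fell and 20 were not called (median -0.15). In all, 39.4% of these targets were called, against 19.1% of all tested genes. COL1A1, a collagen I chain, stood at 34.6, 32.8 and 32.2 CPM in controls 1, 3 and 5 and at 9.21, 9.32 and 11.1 CPM in Sam68 siRNA libraries 1, 2 and 3, a 3.36-fold fall without overlap (log2 fold change -1.75, adjusted p = 1.02e-06 by edgeR). The cell cycle inhibitors CDKN2B and CDKN1A fell as well, CDKN2B from 115 ± 9.91 to 65.8 ± 7.66 CPM (n = 3 each) and CDKN1A from 301 ± 32.1 to 228 ± 2.93 CPM. The tropomyosin TPM1 and vimentin (VIM) changed by -0.30 and -1.45 in log2, with an FDR of 0.241 and 5.1e-09 in the authors' deposited table. Other falls included those of MMP2 and ACTA2, and the rises included those of LTBP2, TGFB1, TAGLN and WNT7B; these were named after their values were seen, apart from TGFB1 and LTBP2. ACTA2 and TAGLN are uncertain, since FAS and STAMBPL1 hold 459% and 130% of the counts of ACTA2, and PCSK7 154% of those of TAGLN, on the other strand. The classic SMAD-induced genes SMAD7, SKIL and PMEPA1 were not called, at 0.07, -0.13 and -0.13. Without control replicate 5, 5 rose and 11 fell, and the number that rose was 3, 2, 1 and 1 without controls 1 and 3 and Sam68 siRNA replicates 1 and 2.

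COL1A1 is also a fibroblast marker, and the summed level of the 10 fibroblast markers was lower with the Sam68 siRNA, at 13.5 to 17 TPM against 30.5 to 38.0 TPM in the controls. Of the 4 tested, COL1A1 and FAP fell and COL1A2 and LUM were not called, where 9.76% of all tested genes fell. With only 4 genes this list is too short to set against that share. PDGFRA and POSTN had no count, and DCN, PDGFRB and THY1 had 1, 1 and 6 over all libraries. The part of fibroblast marker expression in the result of the TGF-beta targets was not tested.

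Of 24 BMP targets 14 were tested, with 1 rise, 3 falls and 10 not called (median -0.13). Changed genes made up 28.6%, against 19.1% of all tested genes. RUNX2, a transcription factor of bone, rose from 14.8 ± 1.20 to 23.6 ± 1.54 CPM (mean ± SD of 3 libraries each; log2 difference 0.67, adjusted p = 0.000665 by edgeR), and SUPT3H on the other strand holds 57.9% of its counts. The falls were ID4, BAMBI and GATA3, a factor of epithelial differentiation, which changed from 55.1 ± 1.57 to 47.7 ± 0.764 CPM. When control replicate 3, or one of the Sam68 siRNA libraries, was left out, ID4 was the only fall, and it passed each time.

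Among the bHLH factors that ID proteins bind or resemble, 10 of 20 were tested and TCF3 alone was called. This call is 10.0% of those tested, against 19.1% of all tested genes. TCF3, an E protein, rose from 91.4 ± 9.37 to 107 ± 1.97 CPM (mean ± SD of 3 libraries each; log2 difference 0.23, adjusted p = 0.0484 by edgeR), and the call was lost without any single library but control replicate 3 (adjusted p up to 0.155). TCF12, another E protein, had a log2 fold change of 0.23 and was not called (adjusted p = 0.11 by edgeR).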

How the data were processed

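The deposited table holds, per the file headers, raw counts for each gene in 6 poly(A) RNA-seq libraries, with RPKM and TPM values made by the authors. A signal headed CPM was deposited too; its totals differ between libraries, and it was not used. The authors' deposited comparison gives a signed fold score, a log2 fold change and p-values per gene. The submitters' processing notes name hg38. Which test, aligner and counter the authors used is not given in the sources used here. As to strand, the library kit in the labels does not mark strand.

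Counts were tested with edgeR 4.0.16 in R 4.3.3: filterByExpr (minimum count 10, minimum total 15), TMM scaling, robust quasi-likelihood F-test of Sam68 siRNA against control siRNA, Benjamini-Hochberg adjustment over all 12351 genes tested, called below 0.05. "Rose" and "fell" are used of called genes only. CPM values use the scaled library size; TPM values are the authors' and were used for levels between genes and for ratios. The SE is the one the F statistic implies. The steps were tested on simulated data, where unchanged genes made up more than the nominal share of the calls.

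The 10 genes, the gene lists and the heptamers were chosen with earlier results of these data known. Named are the 10 genes, KHDRBS1, up to 5 called genes per pathway list by smallest p, and the 3 genes most correlated with each called gene; others named say so or stand beside a result as overlapping genes, markers or uncalled pathway members, chosen after their values were seen. One transcript per gene came from the basic set of GENCODE 29 (a principal one, longest 3' UTR, at least 50 bases). The alternatives were other scalings (RLE, upper quartile), DESeq2 1.42.0, limma 3.58.1 (voom, and trend on log2 TPM with a pseudocount of 1 or 0.1), other filters, a fit that was not robust, a block for the replicate number, and leaving out each library in turn. Python 3.11.15 was used. Some genes of the lists are counted but not reported here by name.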

Additional observations from a re-analysis of the deposited data

How the results depend on the processing

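Of the 3 changes among the 10 genes, that of ID4 passed in all 17 alternatives, between -1.41 and -1.05 in log2. The count of changed genes among the 10 was 1 with the replicate number as a block, 2 without the filter on log2(TPM + 1), and 2 to 4 with 1 library left out. Over all tested genes it was 2358, against 1046 with the block, 1558 on log2(TPM + 0.1), 973 on log2(TPM + 1) without a filter, and between 1112 without Sam68 siRNA replicate 2 and 2666 without control replicate 5. Over the pathway lists it was 37, against 21 with the block, 19 on log2(TPM + 1) without a filter, and 22 to 39 with 1 library left out. The groups share the numbers 1 and 3 only, and same-numbered libraries did not deviate together (correlation of deviations -0.0656 and 0.077); the block rests on the 4 libraries with those numbers and leaves 1 residual degree of freedom. With it TGFB2 and TGFB1 had adjusted p of 0.0711 and 0.103 by edgeR. The sign of ID3, -0.00145, turned to 0.001898 with upper-quartile scaling, 0.002115 without a filter, 0.06785 with the block, 0.004704 on log2(TPM + 1) with or without a filter and 0.004722 on log2(TPM + 0.1). ID3 ranged from -0.06271 to 0.03541 and ID1 from -0.1392 to 0.04048 with 1 library left out. DESeq2 gave ID2 and SMAD6 no adjusted p. The cause of these differences was not tested. With 3 libraries a group, exact permutation tests of single values cannot go below 0.1.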

Other observations

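ACVR1 (chromosome 2, 157736444 to 157876330, minus strand) is listed at 0 counts in all 6 libraries, beside BMPR1A at 17.6 and 18.3 CPM and BMPR2 at 49.3 and 46.6 CPM in the control and Sam68 siRNA means. ACVRL1, AMHR2, HJV and TDGF1 were also at 0. Whether the 0 of ACVR1 is its level in these cells was not tested.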
